A study of Homo sapiens with 46 samples.

Results

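TRA2B and TRA2A are paralogous splicing regulators, and the values of both genes were followed through every experiment of the series. They were 2 of the 60668 genes in the deposited count tables. Of the 298384 splicing events listed in the deposited splicing tables, 80 carried TRA2B or TRA2A in their gene field, 34 for TRA2B and 46 for TRA2A, and 30 of the 80 were listed in all 4 experiments. The study holds 46 RNA-seq libraries, divided over 14 groups. MDA-MB231 cells, an established human breast cancer line, and U87MG cells, an established human glioblastoma line, were transfected for 48 h with ASO-1570, a synthetic oligonucleotide made to switch the splicing of TRA2B, or with the control oligonucleotide ASO-CTL. This was done at 200 nM in one experiment and at 50 nM in another. In a further experiment TRA2B was knocked down in both lines with 10 nM siRNA for 48 h, next to cells given a control siRNA. Every cell line group held 3 libraries. Mice carrying the patient-derived breast tumour TM00096 (a PDX) received ASO-1570 or ASO-CTL by injection into the tumour at 50 mg/kg, 3 times per week for 4 weeks, with 5 tumours per group. The labels call these mice immunocompetent. No genetic change is given for any group, and each cell line and the tumour represent 1 source each.

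TRA2B and TRA2A are nuclear RNA-binding proteins of the SR family. They bind GAA-rich sequences inside exons and favour the inclusion of those exons. Each gene carries a conserved alternative exon, called a poison exon, that brings a premature stop codon into the reading frame, and transcripts that include it can be removed by nonsense-mediated decay. In human cells TRA2 proteins are known to bind their own poison exons and to raise their inclusion, which lowers the level of the protein, and TRA2B is known to act on the poison exon of TRA2A in the same way.

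The sequences of both poison exons carry the features of this feedback, so they are shown first. TRA2B lies on the minus strand of chromosome 3 and TRA2A on the minus strand of chromosome 7, and all positions are given on GRCh38 with the exons of GENCODE v29. The TRA2B poison exon (chr3:185931577-185931852) has 276 bases and lies between exon 1 and exon 2. Read on from the 36 coding bases of exon 1, its first stop codon is at base 79, after 26 codons of the poison exon. TRA2A has an exon at the same place in 3 forms that share their upstream end and differ in their downstream end. The long form (chr7:23522121-23522432) has 312 bases, the middle form 301 bases and the short form 79 bases. In the long and the middle form the first in-frame stop codon is at base 142, after 47 codons. In GENCODE the TRA2B poison exon belongs to 3 transcripts, whose classes are retained intron, processed transcript and nonsense-mediated decay. It lists the long TRA2A form in 1 processed transcript, the short form in 1 target of nonsense-mediated decay and the middle form in 2 transcripts classed as protein coding, so the annotation does not treat all 3 forms alike. The coding strand of each exon up to and including the stop codon, with the stop in capitals, reads as follows.
TRA2B poison exon, bases 1 to 81 (chr3:185931772-185931852): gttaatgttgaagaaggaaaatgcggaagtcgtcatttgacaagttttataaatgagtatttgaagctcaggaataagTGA
TRA2A poison exon, bases 1 to 144 (chr7:23522289-23522432): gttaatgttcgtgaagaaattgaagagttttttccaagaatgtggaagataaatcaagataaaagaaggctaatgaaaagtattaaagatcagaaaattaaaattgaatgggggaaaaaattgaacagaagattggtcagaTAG

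Both exons are dense in GAA, the core of the sequences that TRA2 proteins bind. The TRA2B poison exon holds 28 GAA and the long TRA2A form 32, counted on the RNA strand with overlaps allowed between neighbouring motifs, against a median of 5 in 29049 annotated internal exons of 200 to 400 bases. Of those exons, 0.0413% hold at least as many GAA as the TRA2B exon and 0.0172% at least as many as the TRA2A exon. The longer motif GAAGAA occurs 3 times in the TRA2B exon and 4 times in the long TRA2A form, and 20.7% of the internal exons hold it at least once. The 30 bases richest in GAA are shown with each GAA in capitals, and they hold 7 GAA in TRA2B and 5 in TRA2A. These counts describe letters in the reference sequence and not binding.
TRA2B poison exon, bases 193 to 222 (chr3:185931631-185931660): GAAtttGAAacgGAAGAAtGAAGAAaaGAA
TRA2A poison exon, bases 184 to 213 (chr7:23522220-23522249): tGAAttgggGAAGAAtacacGAAgtatGAA

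Total counts ran from 259.9 to 356.8 M per library at 200 nM and from 75 to 112.8 M in the other 3 experiments. The mitochondrial share of counts was 1.73% to 3.16% in cell lines but 17.65% to 75.31% in PDX tumours. The median PSI of retained-intron events, where PSI is the share of transcripts that include the tested stretch, was 0.112 to 0.184 in cell lines and 0.305 to 0.55 in PDX tumours. CPM of TRA2B, TRA2A and the gene lists below are counts scaled to library size by TMM within each table. For KRT8, GFAP and EPCAM in this paragraph, CPM are counts scaled to the library's total count only, without TMM. KRT8, an epithelial keratin, was at 479 to 1586 CPM in MDA-MB231 libraries and 2.81 to 7.32 CPM in U87MG libraries, which separates the lines. The glial gene GFAP was at 2.33 CPM or less in U87MG and at 1.04 to 3.72 CPM in MDA-MB231, so it does not separate them. The cell type label of the MDA-MB231 samples reads glioblastoma in 2 experiments (50 nM and siRNA), but the lowest KRT8 level in any library titled MDA-MB231, 479 CPM, lay above the highest in U87MG, 7.32 CPM. In PDX tumours EPCAM, an epithelial surface protein, was at 70.6 to 1104 CPM, on totals that include the mitochondrial counts. The labels do not say whether libraries of a group came from separate cultures, so p-values measure the spread between these libraries, which may be technical. Fewer cells and less RNA per cell cannot be told apart in bulk samples.

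TRA2B mRNA was lower in all 18 libraries with ASO-1570 or TRA2B siRNA than in any of their own controls, and the siRNA lowered it furthest. It had 104, 106 and 116 CPM in MDA-MB231 libraries with 200 nM ASO-1570, against 196, 206 and 192 CPM with ASO-CTL. In U87MG it had 77.5, 77.0 and 75.7 CPM with 200 nM ASO-1570, against 161, 159 and 151 CPM with ASO-CTL. The groups did not overlap in either line, and the 3 treated U87MG libraries lay within 2 CPM of each other. At 50 nM TRA2B had 119, 122 and 147 CPM in MDA-MB231 with ASO-1570, against 215, 225 and 218 CPM with ASO-CTL. In U87MG it had 79.4, 74.2 and 75.1 CPM with 50 nM ASO-1570, against 169, 168 and 162 CPM with ASO-CTL. Replicate 3 of the treated MDA-MB231 libraries was the highest of its group at both concentrations. The siRNA left 22.7, 21.4 and 22.5 CPM in MDA-MB231, against 196, 194.5 and 186 CPM with the control siRNA. In U87MG it left 26.3, 22.2 and 28.1 CPM, against 184, 174 and 186 CPM with the control siRNA. Both siRNA groups thus lay below every ASO-1570 group, on levels scaled within each table.

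In edgeR's quasi-likelihood test TRA2B fell in all 6 cell line comparisons. The log2 change with ASO-1570 at 200 nM was -0.87 (SE 0.061, adjusted p = 6.89e-06) in MDA-MB231, where 13.6% of all genes tested were called lower, and -1.03 (SE 0.061, adjusted p = 3.84e-07) in U87MG, where 23.9% were. At 50 nM it was -0.76 (SE 0.069, adjusted p = 3.23e-05) in MDA-MB231, with 13.2% of genes called lower, and -1.13 (SE 0.07, adjusted p = 5.43e-07) in U87MG, with 26.7%. With siRNA it was -3.11 (SE 0.072, adjusted p = 8.55e-10) in MDA-MB231, where 3.6% of genes were called lower, and -2.83 (SE 0.072, adjusted p = 2.3e-09) in U87MG, where 2.6% were. TRA2B, the target of the siRNA, had the smallest p of 23141 genes in both siRNA comparisons. By size of the fall it ranked 70 in MDA-MB231 and 103 in U87MG. In either direction, 25.2% of all genes were called in MDA-MB231 and 49.7% in U87MG at 200 nM, 23.3% and 54.6% at 50 nM, and 7.24% and 4.2% with siRNA.

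TRA2A mRNA moved the other way and was higher in every treated cell line library than in any of its own controls. It had 114, 112 and 111 CPM in MDA-MB231 with 200 nM ASO-1570, against 71.9, 73.3 and 69.7 CPM with ASO-CTL. In U87MG it had 111, 122 and 119.9 CPM with 200 nM ASO-1570, against 43.0, 44.9 and 41.1 CPM with ASO-CTL. Treated libraries of both lines thus reached similar TRA2A levels, although the U87MG controls were lower. At 50 nM it had 163, 154 and 148 CPM in MDA-MB231 with ASO-1570, against 99.95, 99.4 and 98.1 CPM with ASO-CTL. In U87MG it had 142, 148 and 134 CPM with 50 nM ASO-1570, against 57.2, 57.3 and 52.8 CPM with ASO-CTL. The groups were again apart in both lines. With TRA2B siRNA it had 194, 191 and 181 CPM in MDA-MB231, against 92.8, 89.2 and 91.4 CPM with the control siRNA, and in U87MG 152, 165 and 171 CPM with TRA2B siRNA, against 55.6, 55.1 and 56.7 CPM with the control siRNA.

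TRA2A rose in all 6 cell line comparisons in the same test. With ASO-1570 at 200 nM the log2 change was 0.65 (SE 0.059, adjusted p = 3.34e-05) in MDA-MB231, where 11.7% of genes were called higher, and 1.45 (SE 0.06, adjusted p = 7.44e-08) in U87MG, where 25.8% were. At 50 nM it was 0.64 (SE 0.05, adjusted p = 1.16e-05) in MDA-MB231, with 10.1% of genes called higher, and 1.34 (SE 0.051, adjusted p = 6.47e-08) in U87MG, with 27.9%. With siRNA it was 1.05 (SE 0.042, adjusted p = 2.1e-07) in MDA-MB231, where 3.65% of genes were called higher, and 1.55 (SE 0.043, adjusted p = 3.08e-09) in U87MG, where 1.6% were. TRA2A ranked 2 by p among 23141 genes in both siRNA comparisons, directly after TRA2B, and 4 among all genes tested in U87MG at both ASO-1570 concentrations. By size of the rise its rank was far lower. With siRNA it was 540 in MDA-MB231 and 291 in U87MG. With ASO-1570 in U87MG it was 3782 at 200 nM and 2552 at 50 nM.

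**Figure D1:**
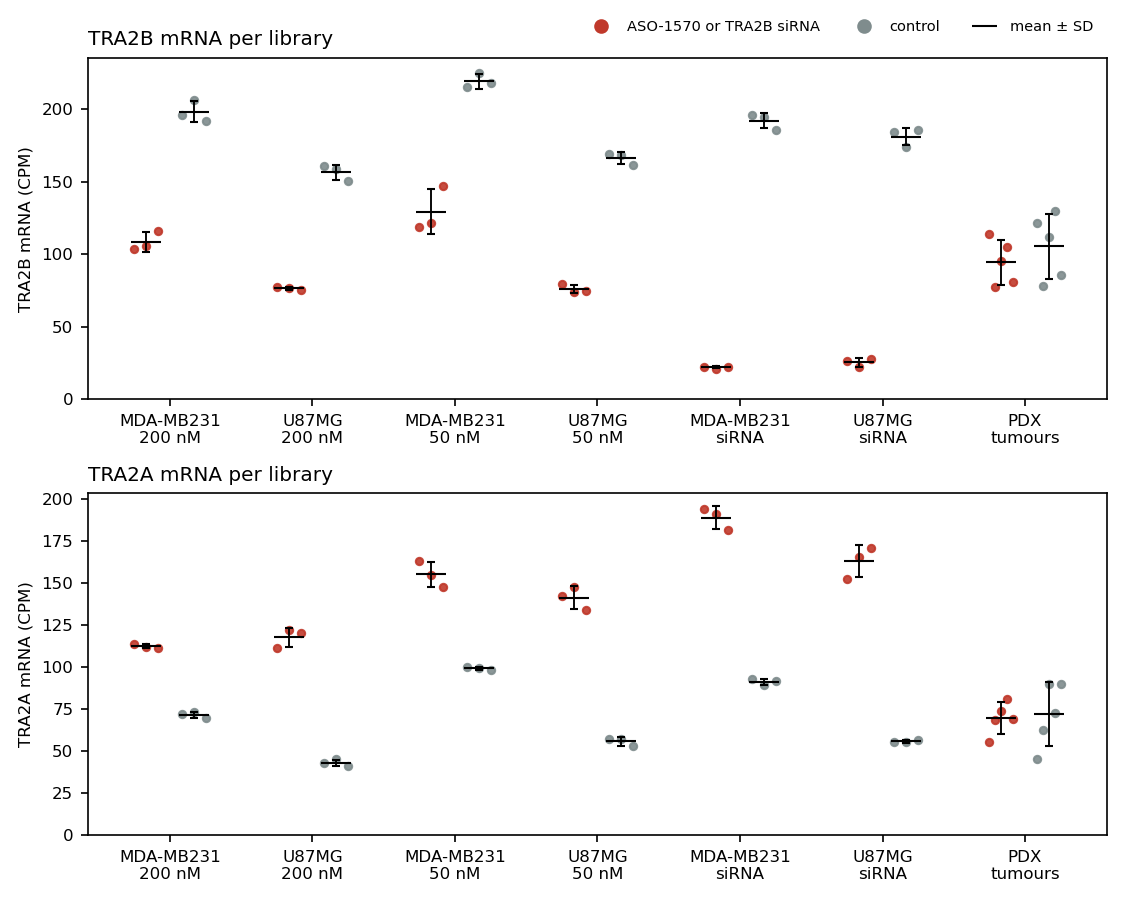
TRA2B mRNA (upper plot) and TRA2A mRNA (lower plot) in CPM for each library, with treated libraries left of their controls and the mean ± SD drawn as bars. In each cell line comparison all treated libraries lie below their controls for TRA2B and above them for TRA2A, and the 5 ASO-1570 and 5 control PDX tumours overlap for both genes.

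The ratio of TRA2A to TRA2B, taken within each library, shifted in every cell line comparison. Relative to control it was 2.87-fold higher with 200 nM ASO-1570 in MDA-MB231 and 5.59-fold higher in U87MG. With 50 nM it was 2.66-fold and 5.53-fold higher in MDA-MB231 and U87MG, and with siRNA 17.9-fold and 20.8-fold higher. No treated library overlapped a control, and the exact two-sided permutation p was 0.1 in each comparison, the smallest that 3 against 3 libraries allow.

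The rise of TRA2A was smaller in MDA-MB231 than in U87MG in all 3 experiments. The difference between the lines (MDA-MB231 minus U87MG), tested as an interaction in edgeR, was -0.80 log2 (SE 0.083, adjusted p = 0.000134) at 200 nM, -0.70 (SE 0.071, adjusted p = 0.000141) at 50 nM and -0.50 (SE 0.059, adjusted p = 0.00711) with siRNA. Interactions were called for 23.6%, 28.2% and 0.527% of all genes in these experiments. For TRA2B the line difference was 0.36 (SE 0.098, adjusted p = 0.0176) at 50 nM, a smaller fall in MDA-MB231. It did not pass at 200 nM (0.16, SE 0.086, adjusted p = 0.199) or with siRNA (-0.29, SE 0.096, adjusted p = 0.26), although without replicate 2 of the U87MG libraries with TRA2B siRNA the siRNA value passed (-0.38, adjusted p = 0.0324).

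The effects at 200 nM and 50 nM did not differ detectably for either gene. The concentrations were used in separate experiments, so the effect of the experiment cannot be told apart from that of the concentration. The 200 nM effect minus the 50 nM effect on TRA2B was -0.081 log2 (SE 0.093, adjusted p = 0.798; 0.035 without replicate 3 of the 50 nM ASO-1570 libraries) in MDA-MB231 and 0.14 (SE 0.093, adjusted p = 0.668) in U87MG. For TRA2A it was 0.030 (SE 0.069, adjusted p = 0.967) in MDA-MB231 and 0.16 (SE 0.07, adjusted p = 0.368) in U87MG. Over all genes the share called in this contrast was 0.158% in MDA-MB231 and 1.66% in U87MG.

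Set against the siRNA effect, the effect of ASO-1570 on TRA2B was weaker in both lines. The 50 nM effect minus the siRNA effect was 2.35 log2 (SE 0.095, adjusted p = 3.53e-16) in MDA-MB231 and 1.66 (SE 0.095, adjusted p = 2.83e-12) in U87MG. The 200 nM effect minus the siRNA effect was 2.27 (SE 0.095, adjusted p = 8.55e-16) and 1.80 (SE 0.094, adjusted p = 3.28e-13) in MDA-MB231 and U87MG. TRA2B had the smallest p of 25874 genes in all 4 of these contrasts.

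TRA2A rose less with ASO-1570 than with siRNA in MDA-MB231, with a difference of -0.41 log2 (SE 0.07, adjusted p = 0.000136) at 50 nM and -0.38 (SE 0.069, adjusted p = 0.000191) at 200 nM. In U87MG the 50 nM effect was also lower than the siRNA effect (-0.25, SE 0.07, adjusted p = 0.00632), and the 200 nM effect did not pass the test (-0.089, SE 0.07, adjusted p = 0.335). Between 11.2% and 40.4% of all genes were called in these 4 contrasts. These contrasts set libraries of separate experiments against each other, and the effect of the experiment cannot be told apart from that of the agent.

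Across the 14 groups TRA2A was highest in MDA-MB231 with TRA2B siRNA at 189 ± 6.69 CPM (SD, n = 3) and lowest in U87MG with 200 nM ASO-CTL at 43.0 ± 1.92 CPM (SD, n = 3). All 6 treated cell line groups lay above all control groups of both lines and the PDX groups in this order. Neighbouring groups overlapped in 7 places, for example U87MG with siRNA and MDA-MB231 with 50 nM ASO-1570, while MDA-MB231 with siRNA lay above every other group. The 3 MDA-MB231 control groups ranged from 71.6 ± 1.81 to 99.2 ± 0.927 CPM and the U87MG control groups from 43.0 ± 1.92 to 55.8 ± 0.82 CPM.

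TRA2B was highest in MDA-MB231 with 50 nM ASO-CTL at 219.5 ± 5.17 CPM and lowest in MDA-MB231 with siRNA at 22.2 ± 0.733 CPM (SD, n = 3 each). The 6 cell line control groups took the 6 highest places. The PDX groups stood between the ASO-1570 groups of MDA-MB231 and those of U87MG, with 94.5 ± 15.4 CPM with ASO-1570 and 105 ± 22.6 CPM with ASO-CTL (SD, n = 5 each). Each table was scaled on its own, so places across tables also carry differences between the experiments.

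The TRA2B poison exon was included more in every ASO-1570 library of both lines than in any of its controls. At 200 nM its PSI was 0.402, 0.556 and 0.301 in MDA-MB231 with ASO-1570, against 0.16, 0.159 and 0.161 with ASO-CTL. In U87MG it was 0.418, 0.553 and 0.497 with ASO-1570, against 0.091, 0.1 and 0.102 with ASO-CTL. The treated libraries varied far more among themselves than the controls did. At 50 nM the PSI was 0.578, 0.49 and 0.377 in MDA-MB231 with ASO-1570, against 0.305, 0.254 and 0.25 with ASO-CTL. The U87MG libraries had 0.558, 0.592 and 0.457 with 50 nM ASO-1570, against 0.153, 0.168 and 0.149 with ASO-CTL. Replicate 3 of MDA-MB231, which kept the most TRA2B mRNA, had the lowest inclusion at both concentrations.

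With TRA2B siRNA the exon showed no such separation. Its PSI was 0.379, 0.168 and 0.192 in MDA-MB231 with TRA2B siRNA, against 0.228, 0.213 and 0.179 with the control siRNA. In U87MG it was 0.174, 0.131 and 0.112 with TRA2B siRNA, against 0.096, 0.129 and 0.112 with the control siRNA. Treated and control libraries overlapped in both lines, and replicate 1 of the treated MDA-MB231 libraries stood above the rest.

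In limma's test across all events, with a call at an adjusted p below 0.05 and a mean PSI difference of at least 0.1, the rise of the TRA2B poison exon was called in U87MG. The difference was 0.392 at 200 nM (SE 0.0359, adjusted p = 0.00185) and 0.379 at 50 nM (SE 0.038, adjusted p = 0.00416), where 5.46% and 3.83% of all events tested were called higher. In MDA-MB231 the difference was 0.26 at 200 nM (SE 0.0633, adjusted p = 0.131) and 0.212 at 50 nM (SE 0.0536, adjusted p = 0.232), and it was not called. Over all events 0.394% were called higher in MDA-MB231 at 200 nM and 0.0766% at 50 nM. With all 4 groups of the 200 nM table in the fit, the MDA-MB231 difference at 200 nM passed (adjusted p = 0.0269). The lines did not differ detectably in this rise, with a difference (MDA-MB231 minus U87MG) of -0.132 at 200 nM (SE 0.0774, adjusted p = 0.343) and -0.167 at 50 nM (SE 0.0681, adjusted p = 0.189). Without replicate 2 of the MDA-MB231 libraries with 200 nM ASO-1570 the 200 nM value was -0.2 and passed (adjusted p = 0.0415). With siRNA the difference was 0.0397 in MDA-MB231 (adjusted p = 0.843; -0.0267 without replicate 1 of the treated libraries) and 0.0267 in U87MG (adjusted p = 0.768). No event at all was called by limma in either siRNA comparison, whereas 3676 of 62430 events in MDA-MB231 and 3417 of 63880 in U87MG had an unadjusted p below 0.05.

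**Figure D2:**
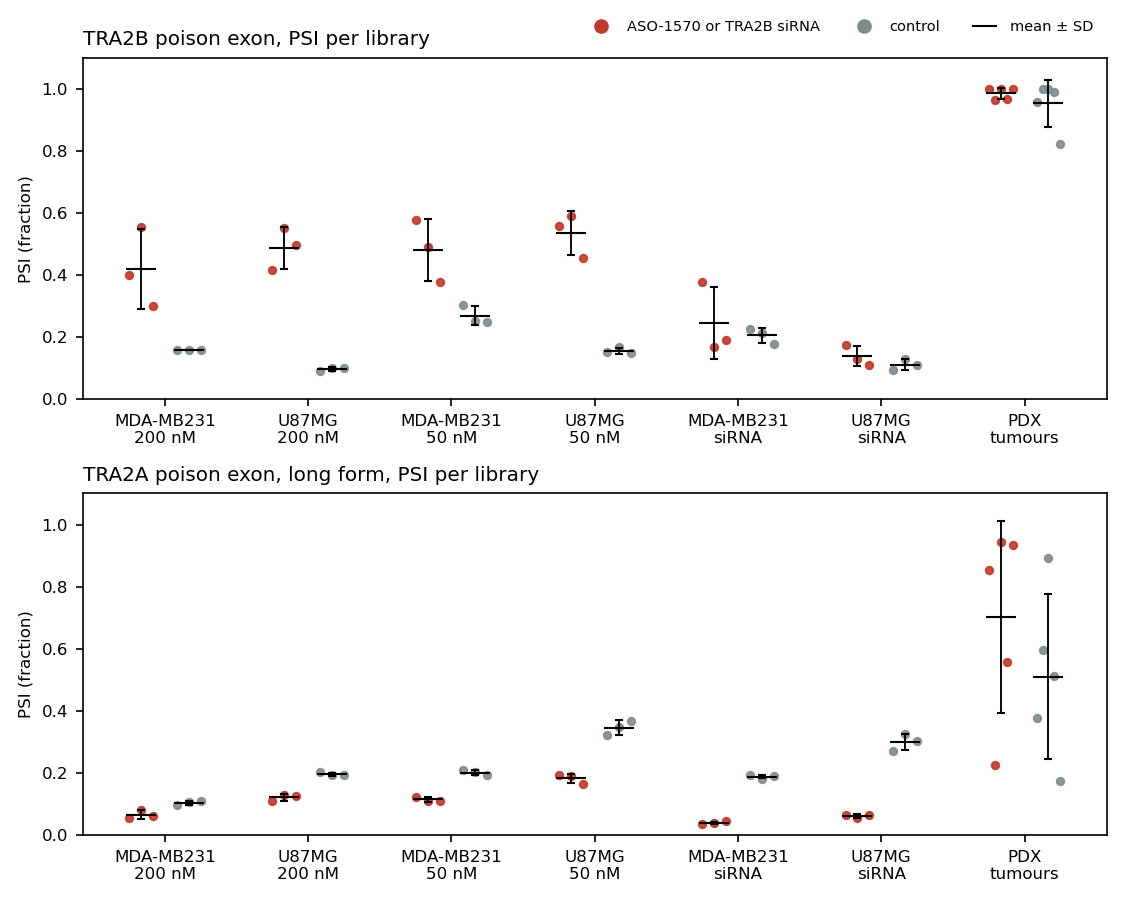
PSI of the TRA2B poison exon (upper plot) and of the long form of the TRA2A poison exon (lower plot) for each library, with treated libraries left of their controls and the mean ± SD drawn as bars. The TRA2B exon is higher in all ASO-1570 cell line libraries and overlaps in the siRNA libraries, whereas the TRA2A exon is lower in all treated cell line libraries. In the PDX tumours the TRA2B exon is at 0.823 or above and the TRA2A exon spans 0.174 to 0.943.

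The level of TRA2B transcripts without the poison exon was described by the product of TRA2B CPM and the share of transcripts that skip the exon. This product averaged 63.5 ± 17.3 in MDA-MB231 with 200 nM ASO-1570 and 167 ± 6.28 with ASO-CTL, or 38.1% of control, whereas total TRA2B was at 54.8% of control. In U87MG it averaged 39.2 ± 5.43 with 200 nM ASO-1570 and 141 ± 5.54 with ASO-CTL, or 27.7% of control beside 49.0% for total TRA2B (SD, n = 3 in each group). The drop in the product was larger than the drop in the gene count in both lines. At 50 nM the product was at 42.4% of control in MDA-MB231 and 25.2% in U87MG, beside 58.9% and 45.8% for total TRA2B. With siRNA the product was at 10.9% in MDA-MB231 and 13.7% in U87MG, close to 11.5% and 14.1% for total TRA2B. Treated and control libraries did not overlap in any of these 6 comparisons (exact two-sided permutation p = 0.1, the smallest possible). The product assumes that transcripts of both kinds are counted alike.

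The TRA2A poison exon was included less in treated cell line libraries. The PSI of its long form was 0.055, 0.081 and 0.062 in MDA-MB231 with 200 nM ASO-1570, against 0.096, 0.107 and 0.108 with ASO-CTL. The U87MG libraries had 0.108, 0.13 and 0.127 with 200 nM ASO-1570, against 0.202, 0.192 and 0.194 with ASO-CTL. No treated library reached a control in either line. At 50 nM it was 0.124, 0.111 and 0.11 in MDA-MB231 with ASO-1570, against 0.208, 0.203 and 0.192 with ASO-CTL. In U87MG it was 0.192, 0.191 and 0.165 with 50 nM ASO-1570, against 0.321, 0.348 and 0.368 with ASO-CTL. With TRA2B siRNA the long form was at 0.065 or less in both lines. It was 0.036, 0.038 and 0.044 in MDA-MB231 with TRA2B siRNA, against 0.194, 0.182 and 0.189 with the control siRNA. The U87MG libraries had 0.065, 0.054 and 0.065 with TRA2B siRNA, against 0.272, 0.324 and 0.304 with the control siRNA.

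Of these differences limma called 1, the fall in U87MG at 50 nM (difference -0.163, SE 0.0208, adjusted p = 0.00769, with 9.94% of all events called lower), and that call was lost with the replicate number as a block (adjusted p = 0.0562). In U87MG at 200 nM the difference was -0.0743 (adjusted p = 0.0144), below the size needed for a call, where 14.1% of events were called lower. In MDA-MB231 it was -0.0377 at 200 nM (adjusted p = 0.354) and -0.086 at 50 nM (adjusted p = 0.164). Within each line the siRNA difference was the largest of the 3, at -0.149 in MDA-MB231 (adjusted p = 0.257) and -0.239 in U87MG (adjusted p = 0.162), and neither was called when the 2 groups compared were fitted alone. With all 4 groups of the siRNA table in the fit they passed, at an adjusted p of 0.00407 in MDA-MB231 and 0.000265 in U87MG, and the MDA-MB231 value also passed without the filter on range (adjusted p = 0.0435).

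The middle and short forms of the TRA2A exon were also lower in treated libraries. The middle form between exon 1 and exon 2 had a PSI of 0.149 to 0.17 in U87MG with 50 nM ASO-1570 and 0.297 to 0.341 with ASO-CTL, a called fall (difference -0.154, adjusted p = 0.00769). With TRA2B siRNA it was at 0.034 to 0.041 in MDA-MB231, against 0.16 to 0.173 with the control siRNA. The short form was at 0.008 to 0.011 in MDA-MB231 and 0.021 to 0.026 in U87MG with TRA2B siRNA, against 0.061 to 0.066 and 0.121 to 0.135 with the control siRNA, without a call. All 3 forms share an upstream splice site, so these events do not measure separate exons.

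Exon 1b of TRA2A (chr7:23531181-23531270), a 90-base exon between exon 1 and the poison exon, marks a separate set of transcripts. Read from exon 1, its first codon is a stop, and GENCODE lists it in 2 transcripts classed as protein coding. In transcripts that hold exon 1b, the PSI of the middle form of the poison exon was 0.387, 0.402 and 0.411 in U87MG with 200 nM ASO-1570, against 0.818, 0.755 and 0.753 with ASO-CTL. At 50 nM it was 0.538, 0.535 and 0.507 with ASO-1570, against 0.9, 0.859 and 0.874 with ASO-CTL. Both falls were called, with differences of -0.375 (adjusted p = 0.00115) and -0.351 (adjusted p = 0.00308). In MDA-MB231 the ASO-1570 libraries had 0.543 to 0.663 and the ASO-CTL libraries 0.793 to 0.884 at 200 nM, and at 50 nM 0.816 to 0.831 with ASO-1570 and 0.918 to 0.969 with ASO-CTL, which did not pass (adjusted p = 0.106 and 0.184). The fall was smaller in MDA-MB231 than in U87MG at 50 nM by 0.225 (SE 0.0336, adjusted p = 0.0072). The values were 0.692 to 0.843 with TRA2B siRNA and 0.898 to 0.971 with the control siRNA in MDA-MB231, and 0.517 to 0.737 with TRA2B siRNA and 0.891 to 0.941 with the control siRNA in U87MG, without overlap and without a call.

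Inclusion of exon 1b itself lay above its controls with 200 nM ASO-1570 and below them with the siRNA in U87MG. Between exon 1 and exon 2 its PSI was 0.12, 0.138 and 0.126 with 200 nM ASO-1570, against 0.063, 0.075 and 0.076 with ASO-CTL. With TRA2B siRNA it was 0.036, 0.038 and 0.032, against 0.078, 0.097 and 0.068 with the control siRNA. The groups did not overlap in either experiment, but the differences of 0.0567 (adjusted p = 0.0268) and -0.0457 (adjusted p = 0.768) were below the size needed for a call, and the contrast of oligonucleotide against siRNA was not tested for PSI. In MDA-MB231 the exon stayed at 0.032 or below in every library.

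In U87MG the intron between the TRA2A poison exon and exon 2 went the reverse way of exon 1b at 200 nM and with siRNA. It was retained less than in controls with the oligonucleotide and more with the siRNA. Its retention behind the long form was 0.189, 0.167 and 0.236 in U87MG with 200 nM ASO-1570, against 0.359, 0.374 and 0.367 with ASO-CTL, a called fall of the PSI (difference -0.169, adjusted p = 0.00495). The 50 nM libraries had 0.24, 0.209 and 0.314 with ASO-1570, against 0.449, 0.417 and 0.475 with ASO-CTL, also called (difference -0.193, adjusted p = 0.0183), although leaving out 1 library ended the call in 4 of 6 cases (largest adjusted p = 0.074). In MDA-MB231 treated and control libraries overlapped at both concentrations. With TRA2B siRNA the same intron was at 0.832, 0.763 and 0.823 in MDA-MB231, against 0.546, 0.468 and 0.605 with the control siRNA. In U87MG it was at 0.679, 0.671 and 0.758 with TRA2B siRNA, against 0.506, 0.504 and 0.513 with the control siRNA. The siRNA libraries thus all lay above their controls, with differences of 0.266 (adjusted p = 0.405) and 0.195 (adjusted p = 0.455) that were not called. This PSI sets retention only against transcripts spliced from the poison exon to exon 2. The long form itself was at 0.065 or less in these siRNA libraries. Whether the amount of RNA with the intron changed was not tested. Over all retained-intron events the median PSI was 0.141 ± 0.0126 in U87MG with 200 nM ASO-1570 and 0.118 ± 0.00346 with ASO-CTL (SD, n = 3 each), and its part in these values was not tested.

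Skipping of coding exons of TRA2B appeared in ASO-1570 libraries next to the inclusion of the poison exon. Exons 5 and 7 are shown because their inclusion changed most among the coding exons, and neither is rich in GAA, which is in capitals.
TRA2B exon 5, 116 bases (chr3:185922011-185922126): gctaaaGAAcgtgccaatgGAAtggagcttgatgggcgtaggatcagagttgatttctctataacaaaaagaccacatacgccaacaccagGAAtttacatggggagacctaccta
TRA2B exon 7, 60 bases (chr3:185919437-185919496): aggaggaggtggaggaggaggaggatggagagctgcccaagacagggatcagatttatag

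Exon 5 was included in full or nearly so in the control libraries of both oligonucleotide experiments. In U87MG its PSI between exon 4 and exon 6 was 0.875, 0.806 and 0.833 with 200 nM ASO-1570, against 1 in all 3 ASO-CTL libraries, a called fall (difference -0.162, adjusted p = 0.00515). The 50 nM libraries had 0.901, 0.846 and 0.937 with ASO-1570, against 1 in all 3 ASO-CTL libraries (difference -0.105, adjusted p = 0.0431), a call that ended in 5 of 6 cases when 1 library was left out (largest adjusted p = 0.134). In MDA-MB231 it was 0.94, 0.927 and 0.978 with 200 nM ASO-1570 and 0.957, 0.978 and 0.992 with 50 nM ASO-1570, against 0.999 to 1 in controls. These values lay below every control but were not called at 200 nM (difference -0.0517, adjusted p = 0.247), and at 50 nM the range was too small to enter the test. With siRNA in MDA-MB231 the PSI was 1 in all 6 libraries.

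Exon 7 behaved like exon 5. In U87MG its PSI between exon 6 and exon 8 was 0.856, 0.739 and 0.816 with 200 nM ASO-1570, against 0.99, 0.991 and 0.988 with ASO-CTL (difference -0.186, adjusted p = 0.012), a call that ended without any 1 of the 3 controls (largest adjusted p = 0.0508). The 50 nM libraries had 0.872, 0.831 and 0.966 with ASO-1570, against 0.99, 0.994 and 0.994 with ASO-CTL (difference -0.103, adjusted p = 0.108). In MDA-MB231 it was 0.944 to 0.986 at 200 nM and 0.951 to 0.987 at 50 nM with ASO-1570, against 0.987 to 0.992 and 0.988 to 0.994 with ASO-CTL. Skipping of both exons was larger in U87MG than in MDA-MB231 at 200 nM, by 0.11 for exon 5 (SE 0.0253, adjusted p = 0.0205) and 0.155 for exon 7 (SE 0.0356, adjusted p = 0.0204), where 8.08% of all events were called in this contrast. Leaving out 1 library ended the call in 5 of 12 cases for exon 5 and 2 of 12 for exon 7, at adjusted p up to 0.0511. The siRNA libraries included exon 7 at 0.988 to 1 in MDA-MB231 and 0.975 to 0.995 in U87MG, against 0.992 to 0.995 and 0.986 to 0.997 with the control siRNA.

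**Figure D3:**
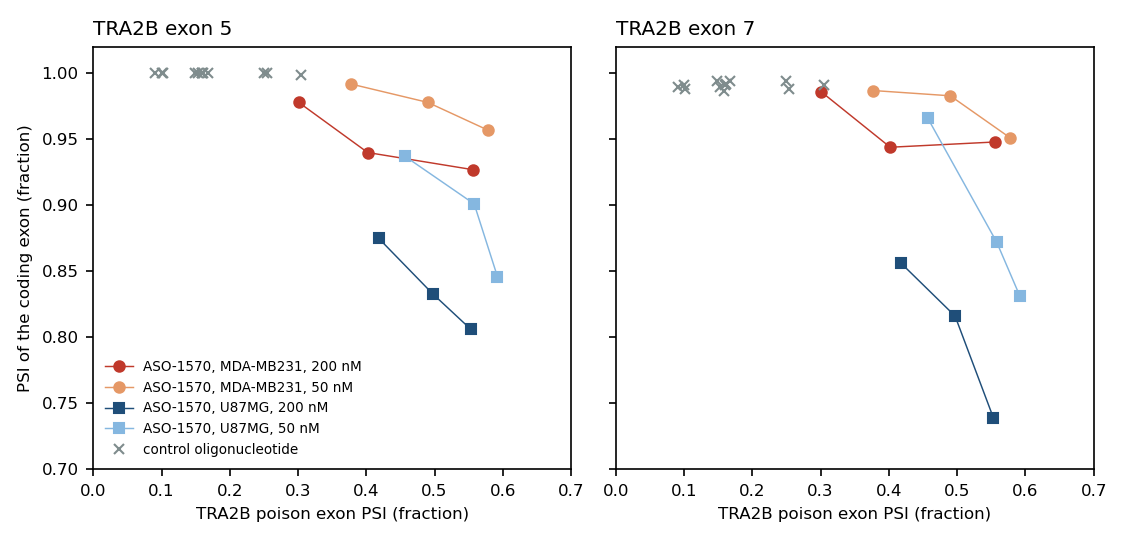
PSI of TRA2B exon 5 (left) and exon 7 (right) against the PSI of the TRA2B poison exon for each library of the 200 nM and 50 nM experiments, with lines joining the 3 ASO-1570 libraries of a group. Controls lie close to 1 on the vertical axis, and the treated U87MG libraries reach down to 0.806 for exon 5 and 0.739 for exon 7.

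Over all events of both genes, calls were concentrated in U87MG with ASO-1570. At 200 nM 1 event of TRA2B was called higher and 3 lower among 8 tested, and 2 events of TRA2A higher and 5 lower among 17 tested, where 19.6% of all events tested were called. At 50 nM 2 events of TRA2B were called higher and 1 lower among 6 tested, and 1 event of TRA2A higher and 10 lower among 19 tested, beside 13.8% of all events. In MDA-MB231 1 TRA2A event was called higher at 200 nM among 11 tested, beside 1.42% of all events (0.394% higher and 1.03% lower), and no event of either gene was called by limma at 50 nM, with siRNA or in the PDX. The filter on range and on complete values removed the other events of each gene, and events that share splice sites are not independent.

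Among the other called events of U87MG, the TRA2A event that sets exon 1b against the middle poison exon had values of 0.532 to 0.578 with 200 nM ASO-1570 and 0.251 to 0.312 with ASO-CTL, but the file does not state which of the 2 exons its PSI counts. The same event was the single call in MDA-MB231 at 200 nM (0.299 to 0.368 with ASO-1570, 0.17 to 0.194 with ASO-CTL, adjusted p = 0.0487), and it was lost without any 1 of the 6 libraries (adjusted p = 0.0698 to 0.192). Retention of the intron behind the middle and the short poison exon was lower in U87MG at 200 nM (differences -0.274 and -0.214) and at 50 nM (-0.26 and -0.231). Leaving out 1 library ended the call of the middle form in 5 of 6 cases at 200 nM (largest adjusted p = 0.0997) and in 4 of 6 at 50 nM (0.0818), and that of the short form in 4 of 6 at 50 nM (0.0859). Of the 80 events, 32 differed by at least 0.05 in mean PSI or were called in some comparison. The other 48 differed by less in all comparisons in which every library had a value.

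Within groups, a library's exon inclusion was not detectably related to its mRNA levels. In the 36 cell line libraries, taken as deviations from the mean of their own group, the PSI of the TRA2B poison exon had a Pearson r of -0.312 with TRA2B mRNA (Spearman rho -0.167, permutation p = 0.212 and 0.444). With TRA2A mRNA the same exon had an r of 0.421 (rho 0.381, permutation p = 0.0256 and 0.0537), which missed the threshold after adjustment over the 4 relations (adjusted p = 0.102 and 0.215). The PSI of the long TRA2A form had an r of -0.086 with TRA2B mRNA (rho -0.067, adjusted p = 0.716 and 0.734) and 0.075 with TRA2A mRNA (rho 0.178, adjusted p = 0.716 and 0.591), both by permutation within groups. Without the 2 libraries farthest from the median mRNA level, the r of the TRA2B exon was -0.193 with TRA2B mRNA and 0.481 with TRA2A mRNA (adjusted permutation p = 0.718 and 0.0715). Treated and control cell line libraries form separate clusters, so no r of exon inclusion with mRNA level was computed across them.

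**Figure D4:**
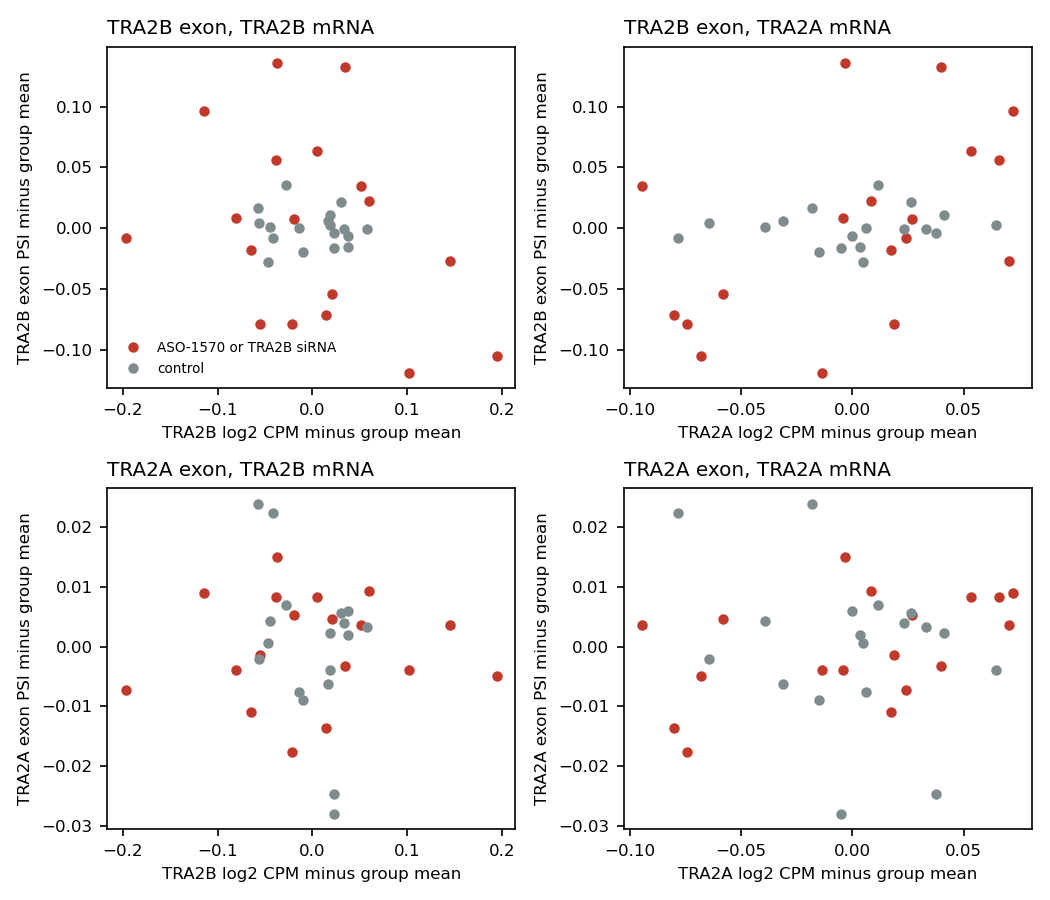
Each of the 36 cell line libraries as its deviation from the mean of its own group, with the PSI of the TRA2B (upper) or TRA2A (lower) poison exon on the vertical axis and the log2 CPM of TRA2B (left) or TRA2A (right) on the horizontal axis. The highest of the 4 correlations is 0.421, for the TRA2B exon and TRA2A mRNA.

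In the PDX tumours no change of either gene with ASO-1570 passed the test. Whether reads of the mouse host were removed from these libraries is not given in the sources used here, and their part in the PDX levels and PSI values was not tested. TRA2B had 114, 77.7, 95.2, 105 and 80.9 CPM in tumours with ASO-1570, against 122, 78.3, 112, 130.1 and 85.7 CPM with ASO-CTL (log2 change -0.16, SE 0.20, edgeR adjusted p = 0.707). TRA2A had 55.4, 68.5, 74.0, 80.9 and 69.2 CPM with ASO-1570, against 45.1, 62.5, 89.9, 72.5 and 89.9 CPM with ASO-CTL (log2 change -0.049, SE 0.22, edgeR adjusted p = 0.921). The groups overlapped for both genes. No gene of 23812 was called by edgeR in the PDX, where 2053 had an unadjusted p below 0.05 and DESeq2 called 3. The log2 ratio of TRA2A to TRA2B differed by 0.13 (ASO-1570 minus ASO-CTL), with overlapping groups (exact permutation p = 0.683). Mitochondrial genes took 52.9% ± 21.7 of the counts with ASO-1570 and 33.2% ± 13.7 with ASO-CTL (SD, n = 5 each, exact permutation p = 0.111), and their part in these values was not tested.

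The TRA2B poison exon was at 0.959 or above in 9 of 10 tumours and at 0.823 in the other. Its PSI was 1, 0.966, 1, 0.969 and 1 with ASO-1570, against 0.959, 1, 1, 0.991 and 0.823 with ASO-CTL (limma adjusted p = 0.763). Measured this way, between exon 1 and exon 2, the tumours lay above every cell line library, whose highest was 0.592. Measured between exon 1 and exon 3, the same exon was at 0.98, 0.649, 0.994, 0.801 and 0.992 with ASO-1570, against 0.822, 0.886, 0.964, 0.973 and 0.508 with ASO-CTL (difference 0.0526, limma adjusted p = 0.844). The groups overlapped in this event as well, and its values reached lower than those of the event before exon 2. In the same event the U87MG libraries of the siRNA experiment had 0.74, 0.589 and 0.653 with TRA2B siRNA. With the control siRNA they had 0.588, 0.662 and 0.617, so tumours and cell line libraries overlapped here. The long form of the TRA2A exon was at 0.853, 0.224, 0.943, 0.557 and 0.933 with ASO-1570, against 0.378, 0.597, 0.891, 0.512 and 0.174 with ASO-CTL (difference 0.192, limma adjusted p = 0.763). Each group covered nearly the whole range of the other. The product for TRA2B transcripts without the poison exon was 0 in 3 tumours with ASO-1570 and in 2 with ASO-CTL, and its groups overlapped (exact permutation p = 0.405). Its mean was 1.18 ± 1.63 with ASO-1570 and 4.26 ± 6.43 with ASO-CTL (SD, n = 5 each). This mean was at 27.6% of control, beside 89.6% for total TRA2B. Without replicate 5 of the ASO-CTL tumours these shares were 76.6% and 85.6%. The share of the product thus rests on very small values.

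Exon inclusion in the tumours moved with the general level of intron retention. Median retained-intron PSI was 0.462 ± 0.072 with ASO-1570 and 0.43 ± 0.08 with ASO-CTL (SD, n = 5 each, exact permutation p = 0.516). Across the 10 tumours it had a Pearson r of 0.782 with the TRA2B exon (rho 0.86, permutation p = 0.0035 and 0.00303, adjusted over 4 relations 0.007 and 0.0115) and 0.854 with the TRA2A exon (rho 0.818, permutation p = 0.00116 and 0.00573, adjusted 0.00464 and 0.0115). As deviations from the group means the r was 0.769 and 0.848 (adjusted permutation p = 0.0186 each), whereas the rho was 0.738 and 0.675 and did not pass (adjusted permutation p = 0.0726 and 0.0962). Without the 2 tumours farthest from the median the r was 0.619 and 0.754 and did not pass (adjusted permutation p = 0.214 and 0.119), so the relations rest partly on those tumours. With the mitochondrial share the r was -0.158 for the TRA2B exon and 0.158 for the TRA2A exon (adjusted permutation p = 0.76 each). None of the 4 relations between exon and mRNA levels passed in the tumours (adjusted permutation p = 0.924 for each as values).

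**Figure D5:**
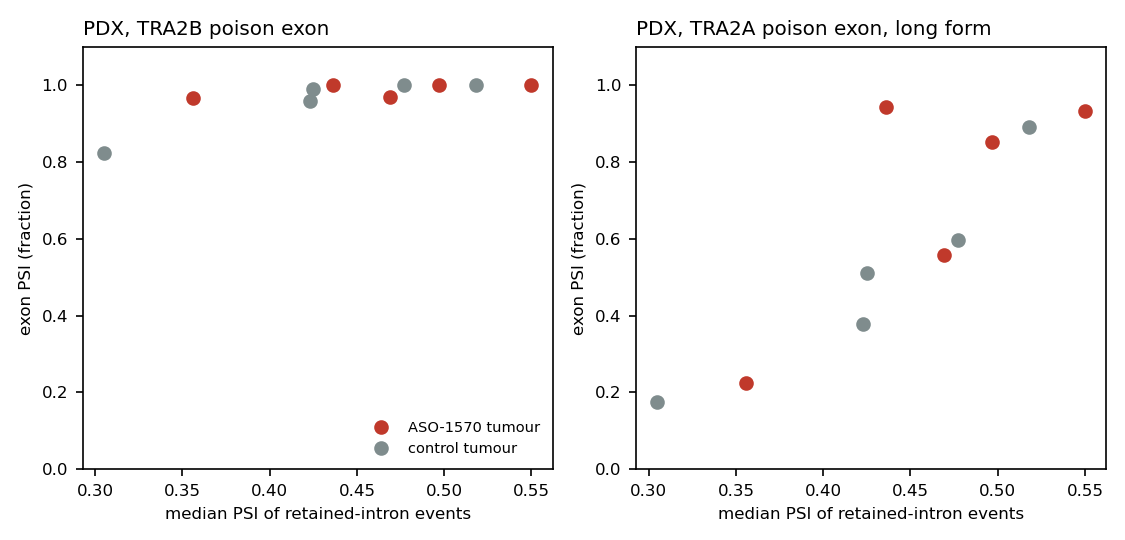
PSI of the TRA2B poison exon (left) and of the long TRA2A form (right) against the median PSI of retained-intron events, for each PDX tumour. The TRA2A form spans 0.174 to 0.943, and the tumours with the lowest intron retention, at 0.305 and 0.356, have its 2 lowest values in the plot.

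Genes of the machinery around TRA2B and TRA2A were followed as 4 lists. Of 12 SR proteins (SRSF1 to SRSF12, which bind exons as TRA2 proteins do), 5 rose and 1 fell in U87MG with 200 nM ASO-1570, beside 49.7% of all genes called in either direction, and 7 rose and 3 fell at 50 nM, beside 54.6%. In MDA-MB231 1 rose and 1 fell at 200 nM, beside 25.2% of all genes, and 1 rose and 3 fell at 50 nM, beside 23.3%. The share of the list called was thus close to that of all genes in U87MG at 200 nM. SRSF5 rose in all 4 comparisons, at 148 CPM with ASO-1570 and 109 CPM with ASO-CTL in MDA-MB231 at 200 nM (log2 change 0.45, edgeR adjusted p = 0.000748). With siRNA 1 of the 12 rose and 1 fell in MDA-MB231, beside 7.24% of all genes, and 2 rose and 1 fell in U87MG, beside 4.2%. SRSF4 fell in MDA-MB231 (89.9 CPM with TRA2B siRNA and 104.6 CPM with control siRNA, log2 change -0.22) and in U87MG (86.97 CPM with TRA2B siRNA and 113 CPM with control siRNA, log2 change -0.38), and SRSF10 rose in both lines by 0.22 on the log2 scale. The list's median change was -0.032 to 0.008 in the siRNA comparisons and -0.058 to 0.141 with ASO-1570, beside medians of 0 to 0.02 over all genes.

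Of 8 kinases that phosphorylate SR proteins, SRPK1, a cytoplasmic SR protein kinase, fell in all 4 ASO-1570 comparisons. It had 251 CPM with ASO-1570 and 421 CPM with ASO-CTL in MDA-MB231 at 200 nM (log2 change -0.74, adjusted p = 5.65e-05). In U87MG at 50 nM it had 48.8 CPM with ASO-1570 and 109 CPM with ASO-CTL (log2 change -1.16, adjusted p = 4.51e-07). With siRNA its log2 change was -0.097 in MDA-MB231 and -0.088 in U87MG, and neither passed (edgeR adjusted p = 0.453 and 0.552). CLK1, a nuclear SR protein kinase, rose in U87MG by 0.64 at 200 nM and 0.56 at 50 nM on the log2 scale. In MDA-MB231 CLK1 fell at 200 nM (log2 change -0.24, edgeR adjusted p = 0.02), and at 50 nM its change of -0.20 did not pass (edgeR adjusted p = 0.0636). In the kinase list 1 rose and 2 fell in MDA-MB231 at 200 nM, beside 25.2% of all genes called, and 2 rose and 1 fell in U87MG, beside 49.7%. At 50 nM 1 fell in MDA-MB231, beside 23.3%, while 4 rose and 2 fell in U87MG, beside 54.6%. With siRNA 1 rose in MDA-MB231 (CLK2, log2 change 0.34), beside 7.24%, and none passed in U87MG by edgeR, beside 4.2%. The list's median change ran from -0.181 in MDA-MB231 at 200 nM to 0.145 in U87MG at 50 nM.

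Of 19 factors of nonsense-mediated decay and the exon junction complex, 5 rose and 7 fell in U87MG with 200 nM ASO-1570, beside 49.7% of all genes called, and 8 rose and 7 fell at 50 nM, beside 54.6%. In MDA-MB231 2 rose and 4 fell at 200 nM, beside 25.2%, and 2 rose and 6 fell at 50 nM, beside 23.3%. SMG9, part of the complex that phosphorylates UPF1, rose in all 4, with a log2 change of 0.98 in U87MG at 200 nM. PNRC2, which links UPF1 to decapping, was at 85.4 CPM with TRA2B siRNA and 109 CPM with control siRNA in MDA-MB231 (log2 change -0.35) and fell by 0.40 in U87MG. With siRNA 1 member rose and 1 fell in MDA-MB231, beside 7.24% of all genes, and 2 fell in U87MG, beside 4.2%. The list's median ran from -0.104 to 0.014 over the 6 cell line comparisons.

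Of 16 partners and antagonists of TRA2B, 7 rose and 3 fell in U87MG with 200 nM ASO-1570, beside 49.7% of all genes called, and 6 rose and 4 fell at 50 nM, beside 54.6%. In MDA-MB231 1 rose and 5 fell at 200 nM, beside 25.2%, and 5 fell at 50 nM, beside 23.3%. KHDRBS3, an RNA-binding protein of the STAR family, fell in MDA-MB231 to 4.31 CPM with 200 nM ASO-1570, against 8.02 CPM with ASO-CTL (log2 change -0.90), and at 50 nM as well (log2 change -0.93). In U87MG KHDRBS3 rose at 50 nM (log2 change 0.35, edgeR adjusted p = 0.0264), and at 200 nM its change of 0.28 did not pass (edgeR adjusted p = 0.0548). SREK1, an SR-related splicing regulator, fell in all 4 ASO-1570 comparisons, by 0.79 on the log2 scale in U87MG at 50 nM. With siRNA SRRM1, a coactivator of splicing, rose by 0.39 in MDA-MB231 and 0.25 in U87MG, and SAFB2, a nuclear scaffold attachment factor, fell by 0.29 and 0.31. Of the list 2 rose and 2 fell with siRNA in MDA-MB231, beside 7.24% of all genes, and 1 rose and 1 fell in U87MG, beside 4.2%. Its median ran from -0.103 to 0.146 over the 6 cell line comparisons. In the PDX no member of the 4 lists was called (smallest edgeR adjusted p = 0.487).

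The genes whose pattern was most like that of each member were sought over the 36 cell line libraries, as log2 CPM minus the mean of the controls of the same line and experiment, among 9718 genes. For TRA2B these were MTM1 (Pearson r 0.882), ZNF37A (0.878), ACAD9 (0.856), NGLY1 (0.855) and UIMC1 (0.831). For TRA2A they included RABGEF1P1 (0.907), DHX29 (0.874), RND3 (0.863) and CNDP2 (0.859). TRA2A and TRA2B had an r of -0.802 with each other on the same measure. These r were computed over treated and control libraries together, so they include the shift between treated and control libraries. Treated libraries stand apart from controls for many genes. The libraries also share their controls within a line and experiment, and the values describe these libraries only.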

How the data were processed

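RNA of 46 samples was sequenced as paired reads of 151 bases from a stranded mRNA kit, per the labels' protocols. FastQC, MultiQC, Trimmomatic, STAR, StringTie and GRCh38 (hg38) are named in the submitters' processing notes; their versions, and the strand setting of the counting, are not given in the sources used here. The authors deposited 1 table of gene counts and 1 table of splicing events for each experiment. The deposited counts are whole reads per gene. The deposited splicing values are fractions from 0 to 1 (PSI, the share of transcripts that include the tested stretch), and the reads behind each fraction are unknown, so no interval could be given. Overlap of other annotated genes with TRA2B or TRA2A was not tested. Gene symbols were matched for 60340 of 60668 identifiers.

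Counts were tested with edgeR 4.0.16 (quasi-likelihood, TMM scaling, filterByExpr, all groups of a table in the fit, Benjamini-Hochberg adjustment over all genes, calls at an adjusted p below 0.05); DESeq2 1.42.0 was the alternative. CPM values were computed with TMM scaling within each table, except those of KRT8, GFAP and EPCAM, which were scaled to the library's total count only. PSI was tested with limma 3.58.1 over all events with a value in every library of the 2 groups compared and a range of at least 0.05. Single values were tested with exact two-sided permutation tests, and relations with 100000 permutations within groups, adjusted over 4 relations. R 4.3.3 and Python 3.11.15 were used. The tests were checked on simulated counts and PSI values with known changes. The simulated PSI values had the same spread setting in both groups. The check therefore does not cover events whose spread differs between groups.

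The members and lists were chosen with earlier results of these data known. All events of both genes were followed, with values for those that differed by at least 0.05 or were called, and at most 4 members of a list were named, by smallest p. The values reported come from fits without pairing, and a fit with the replicate number as a block was an alternative. Same-numbered libraries deviated together in the U87MG siRNA comparison (r = 0.109 to 0.158 for 3 pairs), by the data alone. Other settings were other scaling, no count filter, other PSI filters and scales, the replicate block and leaving out each library. 2 pooled tables that repeat the 200 nM tables were not used. Of the 5 genes most like TRA2A, 1 is not reported here.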

Additional observations from a re-analysis of the deposited data

Results flagged for a closer look

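In the PDX, 38 groups of 5 tumours were searched for a tumour far from the other 4. The cutoff marks about 1 group in 20 by chance when values are independent and normally distributed. PSI values are bounded at 1 and can tie, and events can share splice sites. Besides the poison exons, events entered only if their mean PSI differed by at least 0.05 in the PDX. The chance rate for these groups is therefore not known. The TRA2B poison exon was at 0.823 in 1 ASO-CTL tumour, against 0.959 to 1 in the others. A TRA2B event that tests a 77-base exon of 1 annotated transcript, upstream of the poison exon, was at 0.698 in 1 ASO-1570 tumour and at 1 in the other 4. Exon 1b of TRA2A between exon 1 and exon 2 was at 0.409 in 1 ASO-CTL tumour, and in the ASO-1570 tumours the middle poison form behind exon 1b was at 0.616 in 1 tumour. The TRA2A event that sets exon 1b against the middle poison form was at 0.373 in 1 ASO-1570 tumour.

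The lines differed in their response (MDA-MB231 minus U87MG, interaction tests in edgeR and limma). The log2 change of TRA2A differed by -0.80 at 200 nM, -0.70 at 50 nM and -0.50 with siRNA, and that of TRA2B by 0.36 at 50 nM. The PSI change differed at 200 nM by 0.155 for TRA2B exon 7 and 0.110 for TRA2B exon 5. For the TRA2A event of exon 1b against the middle poison form it differed by -0.127 at 200 nM and -0.138 at 50 nM. At 50 nM it also differed by 0.225 for the middle poison form behind exon 1b, by 0.289 for the intron retained behind the middle form, and by -0.103 for the TRA2B event over exons 3 to 6. Leaving out 1 library ended the call in 11 of 12 cases for this last event (largest adjusted p = 0.1), in 8 of 12 for the exon 1b event at 200 nM (0.0686) and in 3 of 12 for the intron (0.0541).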

How the results depend on the processing

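TRA2B fell and TRA2A rose in all 6 cell line comparisons under all 12 settings of each, with log2 changes of TRA2A in U87MG with siRNA of 1.51 to 1.59, for example. With the replicate number as a block 1 of the main results lost its call, the long TRA2A form in U87MG at 50 nM (PSI difference -0.163, adjusted p = 0.0562). Among the other results, each 1 event in 1 comparison or line difference, 16 lost their call. The remaining 103, called or not called before, stayed as they were, so 1 event can count more than once. The block changed no gene-level call of TRA2B or TRA2A. In MDA-MB231 with siRNA all 3 libraries deviated most like the library of the same number, which is a hint from the data only. With all groups of the table in the fit, calls were gained for the TRA2B poison exon in MDA-MB231 at 200 nM (0.26, adjusted p = 0.0269) and for the long TRA2A form with siRNA in MDA-MB231 (-0.149, adjusted p = 0.00407) and U87MG (-0.239, adjusted p = 0.000265), and without the range filter for MDA-MB231 with siRNA (-0.149, adjusted p = 0.0435). The cause was not tested.

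Leaving out 1 library at a time gave -0.38 to -0.21 for the line difference of TRA2B with siRNA, -0.18 to 0.043 for TRA2A in the PDX, and -0.13 to 0.035 for TRA2B at 200 nM minus 50 nM in MDA-MB231. For the TRA2B poison exon it gave -0.0267 to 0.0788 with siRNA in MDA-MB231, -0.2002 to -0.0727 for the line difference at 200 nM and -0.0533 to 0.0522 for that with siRNA. The event of the poison exon before exon 3 in the PDX ran from -0.028 to 0.111. Of the other values of single events, 126 lost and 28 gained their call over all settings.

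No relation of the TRA2A exon with mRNA passed, and its r changed sign with TRA2B mRNA on a logit scale (0.049) and in treated libraries (0.047). With TRA2A mRNA it changed sign in control libraries (-0.301) and in the PDX without the 2 farthest tumours (-0.024 as deviations, -0.078 as values). With the mitochondrial share it became 0.244 without the 2 farthest tumours.

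Counts over all features moved most for splicing in MDA-MB231. At 200 nM 992 events were called, against 2362 on a logit scale, 405 without the range filter, 605 with a range of 0.1, 3291 with all groups in the fit and 0 with the block. At 50 nM 109 were called, against 452, 39, 61, 945 and 0 in the same order. In U87MG 16057 events were called at 200 nM, against 10419 with the block, and 9229 at 50 nM, against 2885. With siRNA no event was called by limma, against 162 in MDA-MB231 and 164 in U87MG with all groups in the fit, 2 and 1 without the range filter, and 6 on a logit scale in U87MG. The line difference gave 3669 events at 50 nM, against 2424 on a logit scale, and 3 with siRNA, against 10 on a logit scale, 1 with a range of 0.1 and 0 with the block. With siRNA 1676 genes were called in MDA-MB231, against 982 without the count filter. In U87MG 971 were called, against 481 without the filter and 1700 by DESeq2, and for the line difference 122, against 27 and 401. For 200 nM minus 50 nM, MDA-MB231 gave 41 genes, 25 without the filter and 147 by DESeq2, and U87MG gave 429 and 688 by DESeq2. In the PDX edgeR called 0 genes and DESeq2 3. Leaving out 1 library at a time gave 144 to 2452 events in MDA-MB231 at 200 nM and 23 to 499 at 50 nM, the highest count in each without replicate 3 of the ASO-1570 libraries. It gave 3575 to 11220 events in U87MG at 50 nM, 1836 to 6751 for the line difference at 50 nM, and 3 to 11 and 3 to 12 with siRNA in MDA-MB231 and U87MG. Gene counts ran from 796 to 1408 and from 476 to 779 with siRNA in MDA-MB231 and U87MG, and from 13 to 699 for 200 nM minus 50 nM in MDA-MB231, again highest without replicate 3 of the 200 nM ASO-1570 libraries. Shares of all genes or events called move with these counts, and counts of list members moved by more than 1.5 times in many comparisons. Splicing depth is unknown and limits every PSI value.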

Other observations

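Among the 12 libraries with ASO-1570, inclusion of TRA2B coding exons was lower where inclusion of the TRA2B poison exon was higher. This relation was chosen after the values were seen. As deviations from the mean of their own group, the PSI of exon 5 had a Pearson r of -0.816 with the PSI of the poison exon (Spearman rho -0.811, permutation within groups, p adjusted over 2 relations 0.00324 and 0.00476). Exon 7 had an r of -0.694 (rho -0.783, adjusted permutation p = 0.00475 and 0.00476). Within groups of 3, the order of the libraries by exon 5 was the reverse of that by the poison exon in 4 of 4 groups, and by exon 7 in 3 of 4. Without the 2 libraries farthest from the median the r was -0.837 for exon 5 and -0.8 for exon 7 (adjusted permutation p = 0.00939 and 0.00902). The PSI values of 1 library share its reads, and no cause was tested.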
